A study of Mus musculus with 10 samples.

Results

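The genes described here encode the matricellular proteins, proteoglycans and elastic fiber components of the extracellular matrix. They were taken by symbol from a named list, and 43 of 43 were found among the 24470 gene entries of the count table. Male gonads with the mesonephros attached were taken from C57BL/6 mouse embryos at E12.5. From each of 5 embryos, called mice M1 to M5, 1 gonad was kept in culture for 48 h in medium with 75 µM CP 316819 (GPI), which inhibits glycogen phosphorylase, the enzyme of glycogen breakdown. The other gonad was kept for the same time with DMSO, the vehicle. The gonads were cut away from the mesonephros before RNA was extracted, so each of the 10 libraries holds the RNA of a whole cultured testis. The comparison asks how blocking glycogen breakdown alters the transcripts of this matrix in the testis.

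Vehicle libraries held 10203679 to 15590223 counts (median 11114376) and GPI libraries 11025409 to 15635322 (median 11691690). Values called normalized counts are counts divided by the TMM effective library size and multiplied by the mean of that size over the 10 libraries. Levels of different genes are compared only in CPM per kilobase, that is, counts scaled to the size of the library and divided by the length of the gene's exons. Coordinates are those of mm10 (GRCm38). An error after ± is marked as SD or SE. A value in parentheses after a gene, a left-out mouse or a setting is a log2 fold change of GPI over vehicle. The 95% intervals are not adjusted for the number of genes tested, so an interval may leave out 0 for a gene that was not called.

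Matricellular proteins are secreted into the matrix, where they modulate how cells adhere and respond to growth factors more than they bear load. Proteoglycans carry glycosaminoglycan chains: small leucine-rich members bind collagen fibrils, large members fill the matrix or lie in basement membranes, and glypicans and syndecans sit at the cell surface as co-receptors. Elastic fibers are built on fibrillin microfibrils, onto which elastin is laid with the help of fibulins and latent TGF-beta binding proteins (LTBPs) and cross-linked by lysyl oxidases. In the fetal testis, matrix surrounds the cords of Sertoli and germ cells, the vessels and the interstitium.

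Markers of several cell types differed between the treatments, and these values stand beside every matrix result below. The 12 endothelial markers were all called lower with GPI. Their summed level was 8430, 8897, 8151, 9384 and 8494 normalized counts in the vehicle libraries of M1 to M5 and 1064, 1257, 884, 691 and 932 in the GPI libraries, 11.1% of the vehicle mean. Cdh5, the most abundant of them, had a log2 fold change of -3.63, Pecam1 of -4.16 and Kdr of -2.44 (edgeR adjusted p = 3.76e-10, 1.07e-09 and 3.57e-08). Of 9 tested markers of pericytes and smooth muscle, 5 were called lower and 0 higher, and their sum was 52.1% of the vehicle mean. Pdgfrb, the most abundant, had a log2 fold change of -1.55, whereas the contractile genes Acta2 (-0.12), Myh11 (-0.15) and Tagln (-0.09) were not called. Sums of the pericyte list were 5744, 6346, 6591, 6245 and 6125 with vehicle and 3604, 3299, 3315, 2710 and 3235 with GPI. All 12 endothelial genes had counts in all 10 libraries.

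Other marker lists are given by their sums in M1 to M5 and by the log2 fold changes of single genes. Macrophage sums were 1054, 705, 824, 775 and 774 with vehicle and 444, 395, 362, 210 and 252 with GPI, and 8 of 9 tested genes were called lower (Cd68 -0.76, Csf1r -2.22, C1qa -3.78, and Adgre1 -0.26, not called). Germ cell sums were 1737, 2944, 2147, 2834 and 1539 with vehicle and 916, 716, 752, 962 and 940 with GPI, and 6 of 7 tested genes were lower (Ddx4 -2.72, Dazl -4.62, and Kit -0.16, not called). Most of the GPI sums was Kit, with 724, 810, 852, 1035 and 865 with vehicle and 776, 609, 721, 924 and 826 with GPI, so the sums show a smaller fall than the other germ cell genes do. Dazl, for example, had 445, 970, 526, 706 and 254 with vehicle and 52.6, 47.8, 3.8, 11.6 and 9.81 with GPI. Pou5f1 had too few counts to test. Erythroid sums were 1964, 2642, 5067, 4781 and 3980 with vehicle and 1775, 928, 860, 996 and 2439 with GPI, with 6 of 8 genes lower (Hbb-y -0.98, Hba-a1 -1.59, Hba-a2 -1.49). The alpha-globin copies are so alike that the split of reads between them is uncertain.

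Steroid-producing fetal Leydig cells showed the opposite: their sums were 1793, 3675, 4698, 2632 and 6346 with vehicle and 10939, 11426, 17295, 19969 and 14577 with GPI, and 6 of 6 tested genes were called higher (Hsd3b1 1.75, Cyp11a1 2.90, Cyp17a1 3.90, Star 0.79). Sertoli sums, from cells that form the cords, were 3639, 5351, 4094, 5261 and 5589 with vehicle and 4222, 7317, 7531, 9632 and 7251 with GPI, and overlapped, with 7 of 11 genes called higher (Aard 0.54, Sox9 0.59, Dmrt1 0.53, and Amh 0.08, not called). Sox9, Dmrt1 and Amh, which mark the Sertoli cells of a testis, had counts in all 10 libraries. Interstitial progenitor sums were 18245, 19413, 19343, 17334 and 18678 with vehicle and 19626, 20802, 18447, 17469 and 21217 with GPI, with 2 of 8 genes higher and 2 lower (Pdgfra 0.33, and Nr2f2 -0.18, not called). Sums of coelomic epithelium, the surface layer, were 1185, 970, 974, 735 and 789 with vehicle and 1179, 987, 993, 872 and 1062 with GPI. Of its 7 tested genes, 1 was higher and 0 lower, and Upk3b (0.23), Krt19 (-0.05) and Krt7 (-0.02) were not called. In RNA of whole gonads, fewer cells of a type and less RNA per cell cannot be told apart, and the part of these shifts in the matrix results was not tested.

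**Figure D1:**
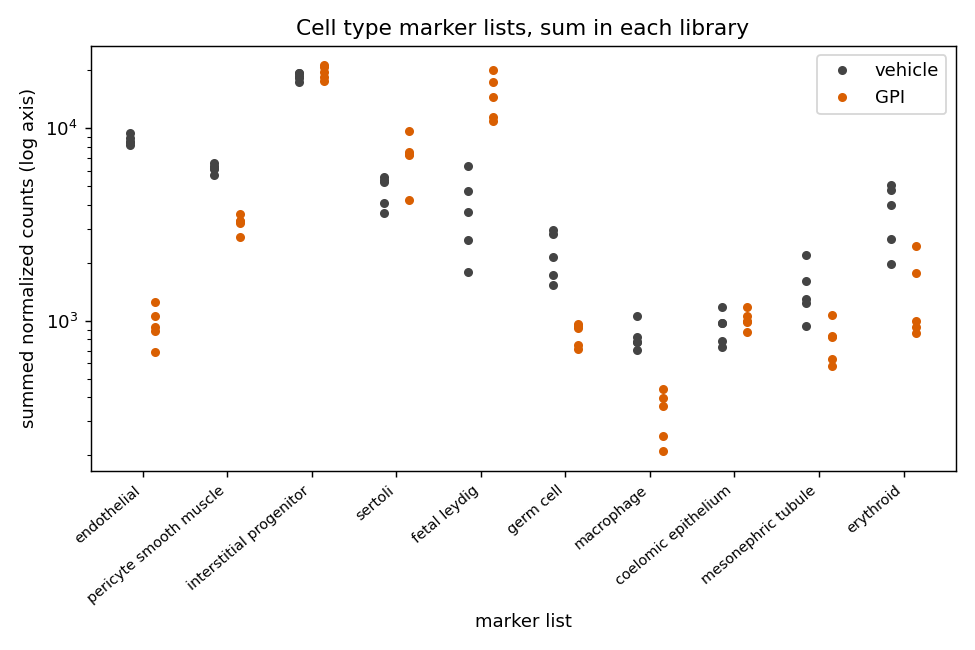
Summed normalized counts of 10 lists of cell type markers (log axis) in each library, 5 vehicle and 5 GPI points a list. The endothelial sums lie between 8151 and 9384 with vehicle and between 691 and 1257 with GPI, and the fetal Leydig sums are higher in each GPI library than in any vehicle library.

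Some libraries held transcripts of mesonephric tubules. Cdh16, a cadherin of tubular epithelium, had 102 raw counts in the vehicle library of M1, 43 in that of M3 and 26 in the GPI library of M2, and 0 to 9 in the other libraries. Sums of the tubule list were 2187, 1292, 1607, 1235 and 939 with vehicle and 828, 1069, 630, 585 and 831 with GPI. Except in the vehicle library of M1, most of each sum was Emx2, with 1013, 1045, 1061, 993 and 791 with vehicle and 616, 720, 483, 466 and 701 with GPI. Emx2 was not high only where Cdh16 was: the vehicle library of M4 had 993 of Emx2 and 0 of Cdh16, so the sums are no measure of tubule transcripts alone. Of 4 tested tubule markers, 3 were called lower and 0 higher (log2 fold changes: Emx2 -0.73, Epcam -2.19, Cdh1 -2.65, and Pax8 -0.28, not called), and Pax2 and Cdh16 had too few counts to test. Counts that lead the results are therefore also given with only mice M4 and M5, an alternative chosen after seeing the data.

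With GPI, most of the matrix genes that differed were lower, above all Sparcl1, Sdc3, Postn and Ltbp4, while Fbln5, Ltbp1 and Ogn were higher. Sparcl1 had a mean of 4404 ± 396 (SD, n = 5) normalized counts with vehicle and 1117 ± 181 (SD, n = 5) with GPI, and Fbln5 79.3 ± 16.6 (SD, n = 5) and 236 ± 31.6 (SD, n = 5). All 43 genes passed the filter on low counts. With edgeR's quasi-likelihood test on all 13941 genes that passed, with mouse as a block and Benjamini-Hochberg adjustment at an FDR of 0.05, 25 of the 43 differed between GPI and vehicle (58.1%, against 22.9% of all tested genes). Of these, 19 were lower with GPI (44.2%, against 11.9% of all tested genes) and 6 were higher (14%, against 11.1%). The share of higher genes was thus near that of all genes, and that of lower genes above it; the median log2 fold change of the members was -0.29, against 0.02 over all tested genes. In single mice the median log2 ratio of the 43 genes was -0.29, -0.16, -0.27, -0.24 and -0.20 for M1 to M5. Vehicle and GPI libraries did not overlap in 17 of the 43 genes (39.5%, against 16.1% of all tested genes), and 23 had the same direction in all 5 mice (53.5%, against 30.5%). Scaling by library totals gave 3 higher (6.98%, against 8.88% of all genes in that fit) and 20 lower (46.5%, against 14.1%). Without M1, 3 were higher (6.98%, against 10% of all genes) and 18 lower (41.9%, against 12.1%). Without M4, 3 were higher (6.98%, against 7.34%) and 14 lower (32.6%, against 9.23%). With M4 and M5 only, 3 were higher (6.98%, against 5.34%) and 12 lower (27.9%, against 7.72%), and all 25 called genes kept their sign. The 10 calls lost with these mice were Thbs1 (0.32), Dcn (-0.11), Fmod (-0.68), Prelp (-0.72), Vcan (-0.25), Sdc2 (-0.28), Sdc4 (0.05), Eln (-0.12), Fbln2 (0.33) and Loxl1 (-0.55).

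Together the 43 genes took 0.804% to 0.863% of all counts with vehicle and 0.593% to 0.649% with GPI. Matricellular genes had 0.293% to 0.327% in vehicle and 0.165% to 0.188% in GPI libraries, and large proteoglycans had 0.16% to 0.201% and 0.107% to 0.142%. For LTBP genes the share was higher with GPI with a narrow overlap, 0.0478% to 0.0579% with vehicle and 0.0575% to 0.0714% with GPI.

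**Figure D2:**
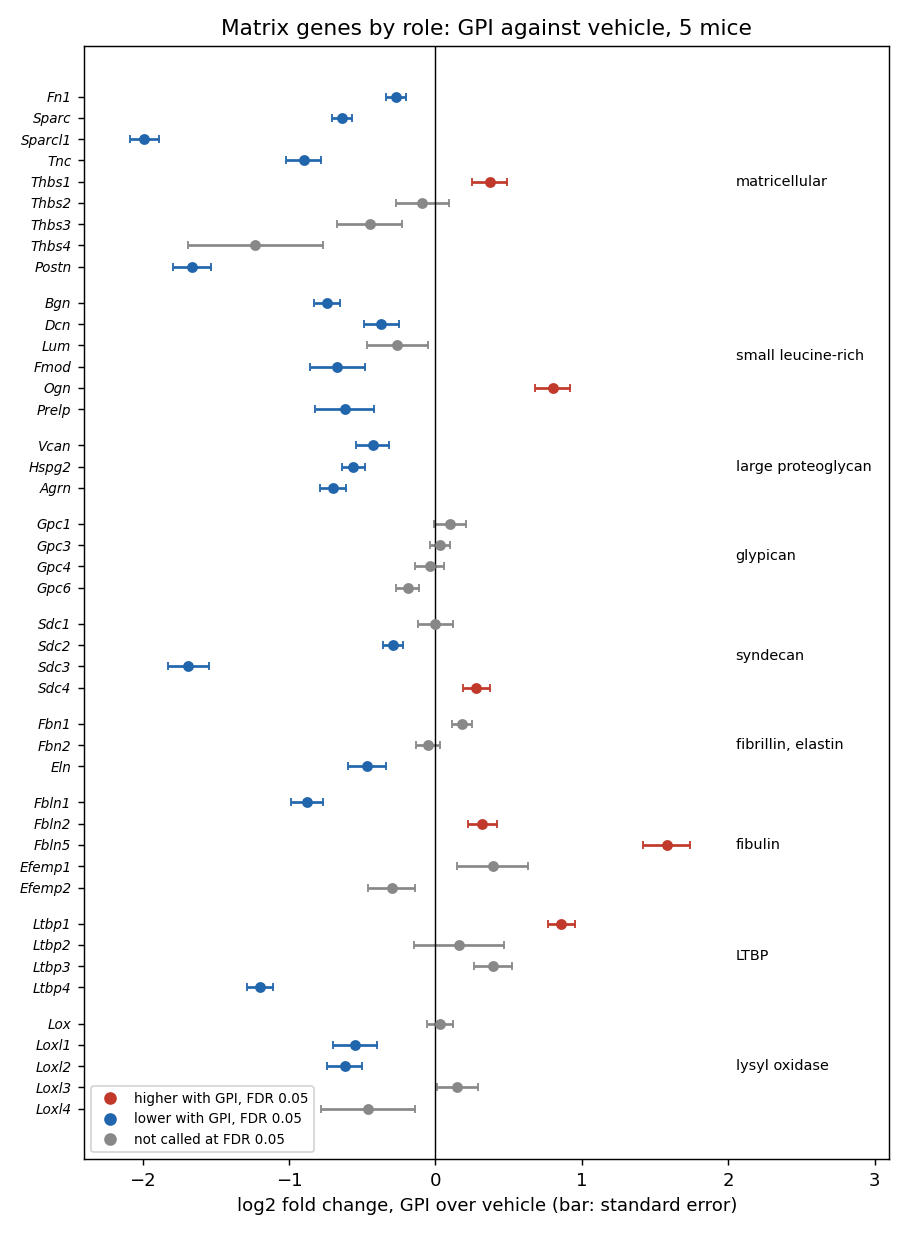
Log2 fold change of GPI over vehicle for the 43 matrix genes, ordered by role, with standard errors as bars and color giving the call at an FDR of 0.05. Sparcl1 (-1.99), Sdc3 (-1.69) and Postn (-1.66) lie farthest to the left and Fbln5 (1.58) farthest to the right, and the 4 glypicans lie between -0.19 and 0.10.

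Of the 9 matricellular genes, 5 were called lower, 1 higher and 3 were not called. Sparc, a collagen-binding glycoprotein, had the highest level per kilobase of the 43 genes, 601 CPM per kilobase with vehicle and 384 with GPI. Its normalized counts (Entrez Gene 20692, chr11:55394159-55420080) were 18013, 23311, 18911, 21453 and 19105 in the vehicle libraries of M1 to M5 and 11630, 12953, 11779, 14195 and 13861 in the GPI libraries. The highest GPI library lay below the lowest vehicle library, with log2 fold change -0.64 ± 0.07 (SE), edgeR adjusted p = 1.2e-05.

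Its relative Sparcl1 had the largest decrease of the 43 genes (Entrez Gene 13602, chr5:104079108-104114088). The vehicle libraries held 4836, 4519, 4492, 4419 and 3756 normalized counts and the GPI libraries 1156, 1283, 1075, 827 and 1242. Every GPI library, at most 1283, lay below the lowest vehicle library, 3756, with log2 fold change -1.99 ± 0.10 (SE), edgeR adjusted p = 2.32e-08. Postn, which binds collagen and cross-linking enzymes, had 3708 ± 755 (SD, n = 5) normalized counts with vehicle and 1198 ± 370 (SD, n = 5) with GPI, with log2 fold change -1.66 ± 0.13 (SE), edgeR adjusted p = 6.93e-07. Tnc, an anti-adhesive hexamer-forming glycoprotein, had 1596 ± 214 (SD, n = 5) and 861 ± 173 (SD, n = 5), with log2 fold change -0.90 ± 0.12 (SE), edgeR adjusted p = 8.4e-05. All 3 were lower in 5 of 5 mice. Fn1, the fibronectin that carries integrins' binding motif, was lower by a smaller amount (log2 fold change -0.27 ± 0.07 (SE), edgeR adjusted p = 0.0137). The Fn1 call was lost without M4 (-0.24) or M5 (-0.22).

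Thbs1, the thrombospondin known for activating latent TGF-beta, went the other way (Entrez Gene 21825, chr2:118111876-118127133). Vehicle libraries held 345, 419, 307, 305 and 334 normalized counts and GPI libraries 616, 422, 389, 370 and 440. The GPI library of M1 was the highest, all 5 mice were higher with GPI, and the groups overlapped, since the vehicle library of M2 (419) lay above the GPI libraries of M3 and M4. The difference passed the threshold with log2 fold change 0.37 ± 0.12 (SE), edgeR adjusted p = 0.036, but not without M1 (0.24), M3 (0.36), M4 (0.40) or M5 (0.37), not without the mouse block (0.39) and not with total-count scaling (0.32). The other thrombospondins of the list were not called. Thbs2 had a log2 fold change of -0.09 (95% interval -0.48 to 0.31), Thbs3 of -0.45 (-0.91 to 0.02) and Thbs4 of -1.23 (-2.22 to -0.23). Thbs4 had 2.85 to 32.8 normalized counts a library.

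Among the 6 small leucine-rich proteoglycans, 4 were called lower, 1 higher and 1 was not called. Bgn, biglycan, had the highest level of the group, 239 CPM per kilobase with vehicle and 142 with GPI, followed by its close relative Dcn, decorin (181 and 140). Normalized counts of Bgn (Entrez Gene 12111, chrX:73483601-73495936) were 6160, 9197, 7395, 6194 and 6675 with vehicle and 4320, 4270, 3972, 3627 and 5035 with GPI. Bgn was lower in each of the 5 mice and the groups did not overlap (log2 fold change -0.74 ± 0.09 (SE), edgeR adjusted p = 5.82e-05). Ogn, osteoglycin, was the member that rose (Entrez Gene 18295, chr13:49608071-49624500). It had 145, 141, 144, 136 and 134 normalized counts with vehicle and 212, 261, 259, 239 and 248 with GPI. The vehicle values lay between 134 and 145 and the GPI values above all of them (log2 fold change 0.80 ± 0.12 (SE), edgeR adjusted p = 0.000368). Ogn lies within Cenpp, a gene on the opposite strand with a mean of 109 normalized counts with vehicle and 114 with GPI. The counts hold no strand, so reads where exons of both genes overlap could not be told apart by it. Whether the exons overlap was not tested.

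Decreases of Dcn, Fmod and Prelp, which bind fibrillar collagen or basement membrane, lost their calls when single mice were left out. Dcn had log2 fold change -0.37 ± 0.12 (SE), edgeR adjusted p = 0.0489, was higher in M5, and was not called without M1 (-0.21), M2 (-0.38), M3 (-0.41) or M4 (-0.38), nor by DESeq2 (-0.38) or without the mouse block (-0.37). Fmod had log2 fold change -0.67 ± 0.19 (SE), edgeR adjusted p = 0.019, and was lost without M2 (-0.51) or M4 (-0.63). Prelp had log2 fold change -0.62 ± 0.20 (SE), edgeR adjusted p = 0.0408, was higher in M5, and was lost without M2 (-0.56), M3 (-0.68) or M4 (-0.39). Lum, lumican, ran from 556 to 1836 normalized counts with vehicle and from 547 to 1093 with GPI, its highest value in the vehicle library of M1, and was not called (-0.26, 95% interval -0.71 to 0.18).

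The 3 large proteoglycans were all called lower, in 5 of 5 mice, with no overlap between the groups. Vcan, versican, a hyaluronan-binding proteoglycan of provisional matrix, had the highest level of them (107 CPM per kilobase with vehicle, 79.9 with GPI). Its normalized counts (Entrez Gene 13003, chr13:89655310-89742512) were 20562, 17381, 18770, 15896 and 15830 with vehicle and 10337, 15528, 12982, 12221 and 14882 with GPI (log2 fold change -0.43 ± 0.11 (SE), edgeR adjusted p = 0.00952). The gap between the groups was narrow, 15830 against 15528. Agrn, agrin, a heparan sulfate proteoglycan of basement membranes, had the largest decrease of the 3 (Entrez Gene 11603, chr4:156165290-156197488), with 1692, 1150, 1250, 1263 and 1249 normalized counts in vehicle and 874, 904, 712, 787 and 777 in GPI libraries. The vehicle library of M1 was the highest, and all GPI libraries lay below all vehicle libraries (log2 fold change -0.70 ± 0.09 (SE), edgeR adjusted p = 8.22e-05). Hspg2, perlecan, the other basement membrane member, had 2405 ± 128 (SD, n = 5) and 1648 ± 252 (SD, n = 5) normalized counts (log2 fold change -0.56 ± 0.08 (SE), edgeR adjusted p = 0.000172). With M4 and M5 only, Vcan was not called (-0.25).

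Of the 4 glypicans, which are tethered to the membrane by a lipid anchor, 0 were called by edgeR at an FDR of 0.05. DESeq2 and limma-voom also called 0. An unadjusted edgeR p under 0.05 was found for 1 of 4, Gpc6, and for 4742 of all 13941 tested genes. Gpc3 had the highest level, 78.1 CPM per kilobase with vehicle and 79.3 with GPI. Its normalized counts (Entrez Gene 14734, chrX:52272426-52613974) were 2565, 2644, 3035, 2270 and 2420 with vehicle and 2910, 2576, 2700, 2415 and 2542 with GPI. The ranges overlapped and the log2 fold change was 0.03 (95% interval -0.13 to 0.18), with the sign turning to -0.02 under total-count scaling. The intervals were -0.14 to 0.33 for Gpc1 (0.10), -0.25 to 0.18 for Gpc4 (-0.04) and -0.36 to -0.02 for Gpc6 (-0.19). Gpc6 was called lower with total-count scaling (-0.24) and without M5 (-0.27), the mouse in which it was higher with GPI.

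Syndecans, which span the membrane, moved apart: 2 were called lower, 1 higher and 1 was not called. Among the proteoglycans of the 43 genes, Sdc3 had the largest decrease (Entrez Gene 20970, chr4:130792537-130826318). It had 431, 598, 613, 620 and 625 normalized counts in vehicle and 199, 199, 189, 164 and 141 in GPI libraries. The vehicle library of M1 was below those of the other mice and still above every GPI library (log2 fold change -1.69 ± 0.14 (SE), edgeR adjusted p = 1.2e-06). Sdc4 had the highest level of the 4 (43.4 and 52.8 CPM per kilobase). It held 1282, 1094, 1281, 1482 and 1429 normalized counts with vehicle and 1538, 1670, 1708, 1702 and 1372 with GPI (Entrez Gene 20971, chr2:164424247-164443188). The groups overlapped and M5 was lower with GPI, and the difference passed with log2 fold change 0.28 ± 0.09 (SE), edgeR adjusted p = 0.0387, but not without M1 (0.27), M2 (0.20), M3 (0.24) or M4 (0.31), nor with total-count scaling (0.23). Sdc2 was lower in 5 of 5 mice (log2 fold change -0.29 ± 0.07 (SE), edgeR adjusted p = 0.00816), and Sdc1 had a log2 fold change of 0.00 (95% interval -0.26 to 0.26).

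Of the 3 fibrillin and elastin genes, 1 was called lower and 2 were not called. Fbn1, fibrillin-1, had the highest level of the group (41.8 and 47.4 CPM per kilobase) and 5745, 5932, 6161, 5896 and 7195 normalized counts with vehicle and 6743, 7137, 7210, 7178 and 6775 with GPI (Entrez Gene 14118, chr2:125300594-125506438). It was higher in 4 of 5 mice and was not called (0.18, 95% interval 0.03 to 0.34); without M5, the mouse that went the other way, it was (0.25). Fbn2 was not called (-0.05, 95% interval -0.22 to 0.12). Eln, the elastin that gives the fiber its recoil, was called lower in 5 of 5 mice (Entrez Gene 13717, chr5:134702595-134747323). It had 375, 601, 492, 329 and 467 normalized counts with vehicle and 266, 319, 300, 288 and 460 with GPI. The groups overlapped (log2 fold change -0.47 ± 0.13 (SE), edgeR adjusted p = 0.019), and the call was lost without M2 (-0.35) or M3 (-0.42), or without the mouse block (-0.47).

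Among the 5 fibulins, 2 were called higher, 1 lower and 2 were not called. Fbln5, which brings elastin to microfibrils, had the largest increase of the 43 genes (Entrez Gene 23876, chr12:101746565-101819119). Its vehicle libraries held 84.2, 62.1, 61.4, 96.6 and 92.2 normalized counts and its GPI libraries 201, 212, 277, 259 and 231. Every GPI library was above every vehicle library (log2 fold change 1.58 ± 0.16 (SE), edgeR adjusted p = 1.09e-05). Fbln1, a fibulin of basement membranes and elastic tissue, was the member of the group that fell (Entrez Gene 14114, chr15:85206008-85286294). It had 401, 368, 386, 357 and 394 normalized counts with vehicle and 241, 203, 217, 181 and 200 with GPI, again without overlap (log2 fold change -0.88 ± 0.11 (SE), edgeR adjusted p = 3.84e-05). Fbln2 had the highest level of the fibulins with GPI (8.61 CPM per kilobase), but with vehicle its level (6.91) was below those of Fbln1 (7.54) and Efemp2 (7.34). Its normalized counts (Entrez Gene 14115, chr6:91212764-91272540) were 345, 394, 458, 405 and 434 with vehicle and 492, 501, 467, 592 and 485 with GPI. The groups did not overlap, although the highest vehicle and lowest GPI values, 458 and 467, both of M3, were close (log2 fold change 0.32 ± 0.10 (SE), edgeR adjusted p = 0.042), and the call was lost without M1 (0.25), M2 (0.31), M4 (0.26) or M5 (0.36), with DESeq2 (0.31) and with total-count scaling (0.27). Efemp1 (0.39, 95% interval -0.12 to 0.91) and Efemp2 (-0.30, -0.63 to 0.04) were not called; without M2, Efemp2 was called lower (-0.45).

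LTBPs bind microfibrils, and some of them hold latent TGF-beta in the matrix. Here too the members went opposite ways, 1 called higher, 1 lower and 2 not called. Ltbp1 had the highest level of them (45.1 CPM per kilobase with vehicle and 81.7 with GPI). Normalized counts of Ltbp1 (Entrez Gene 268977, chr17:75005529-75392967) were 4032, 3731, 3524, 4632 and 3242 with vehicle and 5838, 7127, 6790, 7271 and 7725 with GPI, with no overlap (log2 fold change 0.86 ± 0.09 (SE), edgeR adjusted p = 1.41e-05). Ltbp4, whose product also takes part in elastic fiber assembly, had 1676, 1903, 2113, 2215 and 2318 normalized counts with vehicle and 944, 834, 881, 871 and 893 with GPI (Entrez Gene 108075, chr7:27305141-27337612). All GPI values lay between 834 and 944, below the lowest vehicle value (log2 fold change -1.20 ± 0.09 (SE), edgeR adjusted p = 4.86e-07). Ltbp3 was higher in 5 of 5 mice but not called (0.39, edgeR adjusted p = 0.0541, 95% interval 0.10 to 0.68), and it was called without M5 (0.47) and with no low-count filter (0.38). Ltbp2, with 24 to 53.7 normalized counts a library, was not called (0.16, 95% interval -0.50 to 0.82).

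Ratios of levels between family members that moved in opposite directions were chosen after their values were seen. Per kilobase, the ratio of Ltbp1 to Ltbp4 was 2.04, 1.67, 1.42, 1.78 and 1.19 in the vehicle libraries of M1 to M5 and 5.26, 7.26, 6.54, 7.09 and 7.34 in the GPI libraries. That of Fbln5 to Fbln1 was 0.107 to 0.183 with vehicle and 0.566 to 0.967 with GPI. By the exon lengths used, 6.06 kb for Fbln5 and 4.1 kb for Fbln1, Fbln1 had the higher level in each library. With GPI this order rests on those lengths, since Fbln5 had more normalized counts than Fbln1 in M2 to M5. The ratio of Sdc4 to Sdc3 was 3.7 to 6.02 and 15.6 to 21. The ratio of Ogn to Bgn was 0.0144 to 0.0222 with vehicle and 0.0462 to 0.0621 with GPI. Since the pairs were chosen for their opposite directions, these ratios describe the genes' values and are no further support for them.

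**Figure D3:**
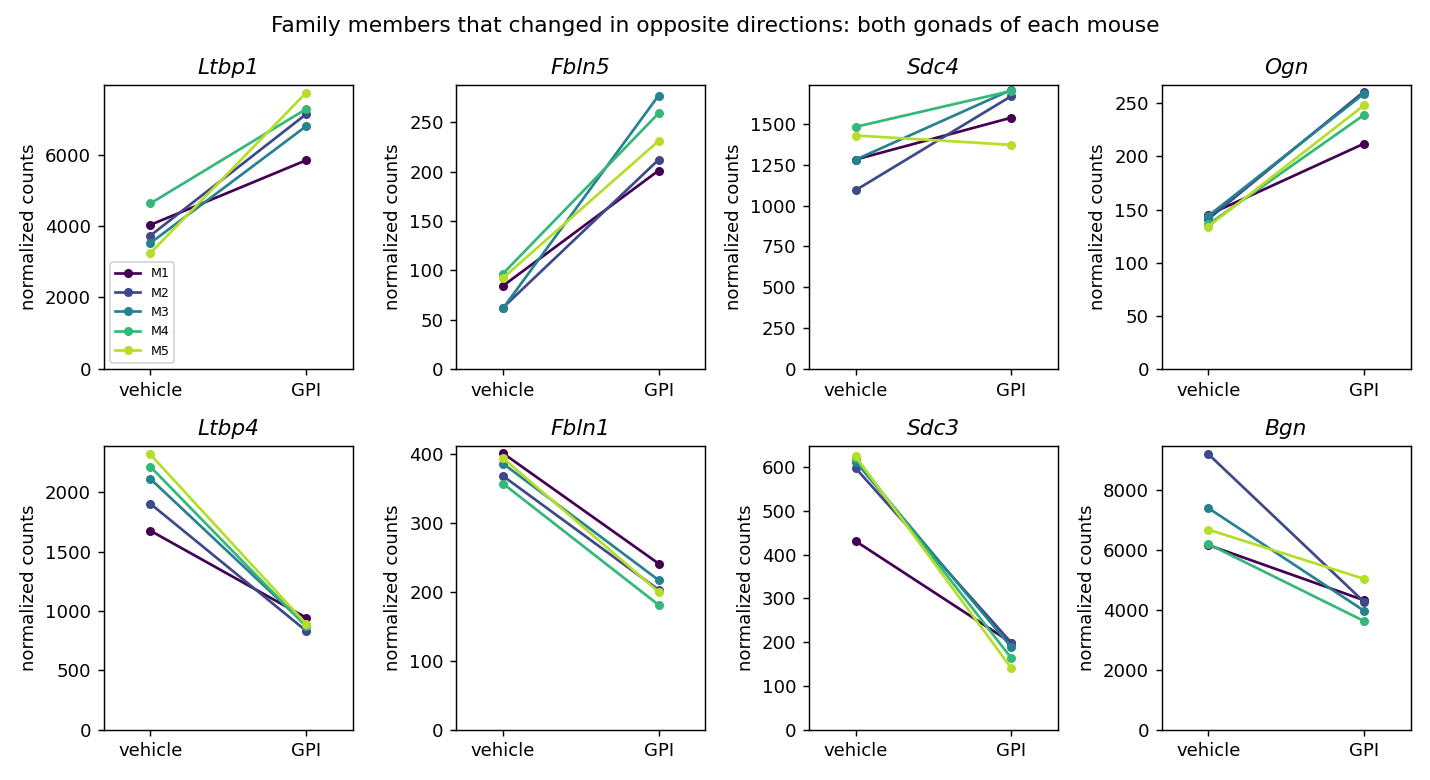
Normalized counts of 8 genes in the vehicle-treated and GPI-treated gonad of each mouse, 1 line a mouse, with 1 higher gene above 1 lower gene of the same role. Lines run the same way in all 5 mice except for Sdc4, where M5 goes from 1429 to 1372.

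To set the opposed pairs beside their sequence, the 250 bases before the RefSeq start site at the outer end of each gene are given for Ltbp1 and Ltbp4 and for Fbln5 and Fbln1 (GRCm38.p6). They were searched on both strands for CAGAC, letters bound by SMAD proteins, and TGANTCA, a pattern wider than the AP-1 site; matches are in capitals, and a match on the other strand appears as its reverse complement.
Ltbp1, chr17:75005279-75005528, plus strand: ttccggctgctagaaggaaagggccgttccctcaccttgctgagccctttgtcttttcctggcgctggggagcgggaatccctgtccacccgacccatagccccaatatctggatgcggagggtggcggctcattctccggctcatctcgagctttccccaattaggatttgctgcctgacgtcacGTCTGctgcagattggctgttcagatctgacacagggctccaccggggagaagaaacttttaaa
Ltbp4, chr7:27337613-27337862, minus strand: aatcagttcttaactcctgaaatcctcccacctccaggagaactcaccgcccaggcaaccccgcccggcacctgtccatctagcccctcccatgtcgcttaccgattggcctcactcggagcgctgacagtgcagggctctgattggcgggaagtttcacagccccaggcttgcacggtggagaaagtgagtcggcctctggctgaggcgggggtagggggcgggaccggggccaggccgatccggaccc
Fbln5, chr12:101819120-101819369, minus strand: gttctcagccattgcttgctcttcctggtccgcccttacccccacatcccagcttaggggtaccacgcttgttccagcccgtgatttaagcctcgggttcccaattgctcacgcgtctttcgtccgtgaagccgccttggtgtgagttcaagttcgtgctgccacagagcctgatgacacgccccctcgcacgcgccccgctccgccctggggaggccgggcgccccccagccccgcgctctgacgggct
Fbln1, chr15:85205758-85206007, plus strand: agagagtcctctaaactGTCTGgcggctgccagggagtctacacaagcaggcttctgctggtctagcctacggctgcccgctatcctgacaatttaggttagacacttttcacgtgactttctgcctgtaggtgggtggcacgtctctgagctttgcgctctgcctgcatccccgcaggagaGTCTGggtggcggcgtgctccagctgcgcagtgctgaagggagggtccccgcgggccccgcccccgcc
CAGAC occurred once before Ltbp1, at 64 bases, and at 233 and 68 bases before Fbln1, so 1 gene that rose and 1 that fell had it here. At other start sites in the table, Ltbp1 and Fbln5 each had 2 matches and Ltbp4 had 0, while the other window of Fbln1 overlaps the one printed and holds the same 2 matches. The promoter table had entries for 29 of the 43 genes, with 39 start sites. CAGAC was found in 18 of the 39 windows (46.2%), against 42.2% of all 32851 windows in the table, and TGANTCA in 1 (2.56%), against 6.75%. That match, before Efemp1, is not of the AP-1 form, so these shares do not count AP-1 sites. Of genes with an entry, 2 of 5 higher, 7 of 12 lower and 7 of 12 not called had CAGAC before some start site. Genes with more start sites had more chances of a match, and this share was not computed over all genes. The counts per gene are therefore not comparable with the shares of windows. All matches are of letters and are not binding sites. By position, the 43 genes lie on 18 chromosomes, with at most 4 on any of them.

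Of the 5 lysyl oxidases, which cross-link elastin and collagen, 2 were called lower and 3 were not called. Loxl2 had the highest level (25.4 and 17.4 CPM per kilobase). Its normalized counts (Entrez Gene 94352, chr14:69609476-69695834) were 1942, 1807, 1567, 1600 and 1547 with vehicle and 2037, 916, 927, 942 and 960 with GPI. In M2 to M5 the GPI values lay between 916 and 960, while the GPI library of M1 held more than any vehicle library, so the groups overlapped and 4 of 5 mice were lower (log2 fold change -0.62 ± 0.12 (SE), edgeR adjusted p = 0.00196); without M1 the log2 fold change was -0.81. Loxl1, which acts on elastin, was lower in 5 of 5 mice (log2 fold change -0.55 ± 0.15 (SE), edgeR adjusted p = 0.018) and lost its call without M3 (-0.46) or M4 (-0.46). Lox (0.03, 95% interval -0.17 to 0.22), Loxl3 (0.15, -0.15 to 0.46) and Loxl4 (-0.46, -1.15 to 0.23) were not called. The sign of Lox turned under total-count scaling (-0.03), and Loxl3 overlaps Htra2 on the opposite strand by 1299 bases.

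**Figure D4:**
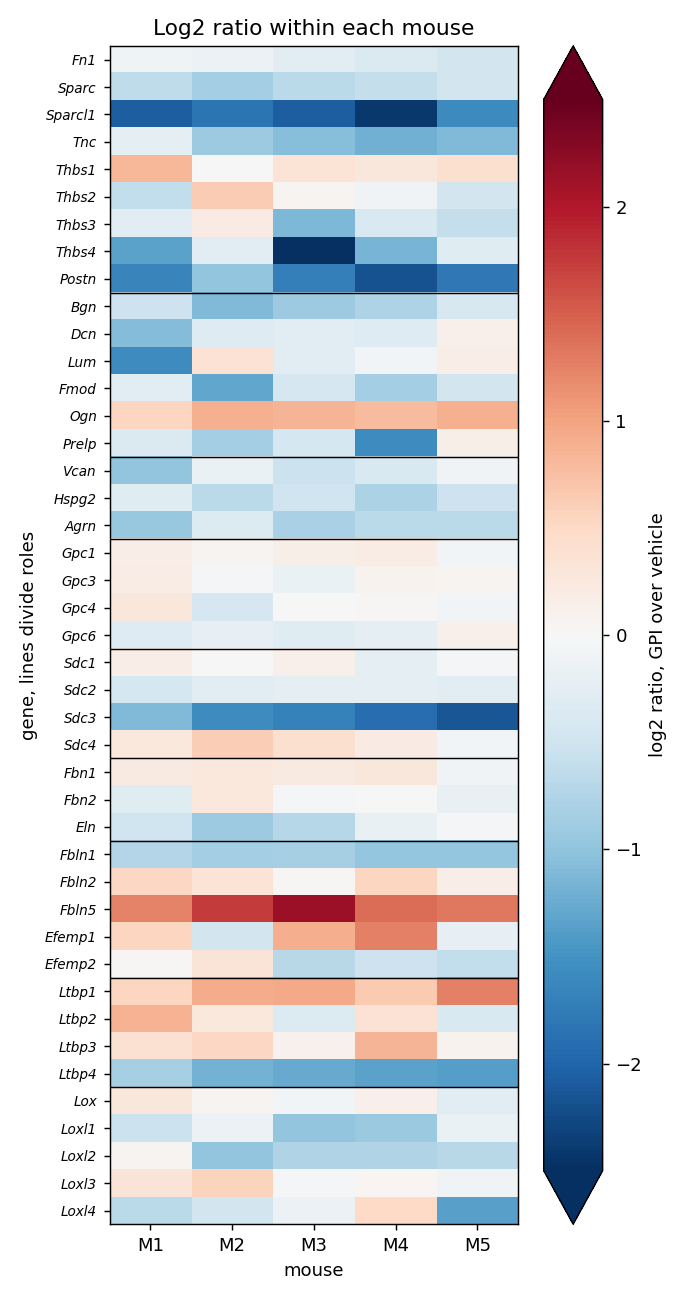
Log2 ratio of GPI over vehicle in each mouse for the 43 genes, by role, blue for lower and red for higher with GPI. Sparcl1, Postn, Sdc3 and Ltbp4 are blue and Fbln5, Ltbp1 and Ogn red in all 5 mice, while Loxl2 is 0.07 in M1 and -0.98 to -0.69 in the other mice, and Lum is -1.57 in M1.

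**Figure D5:**
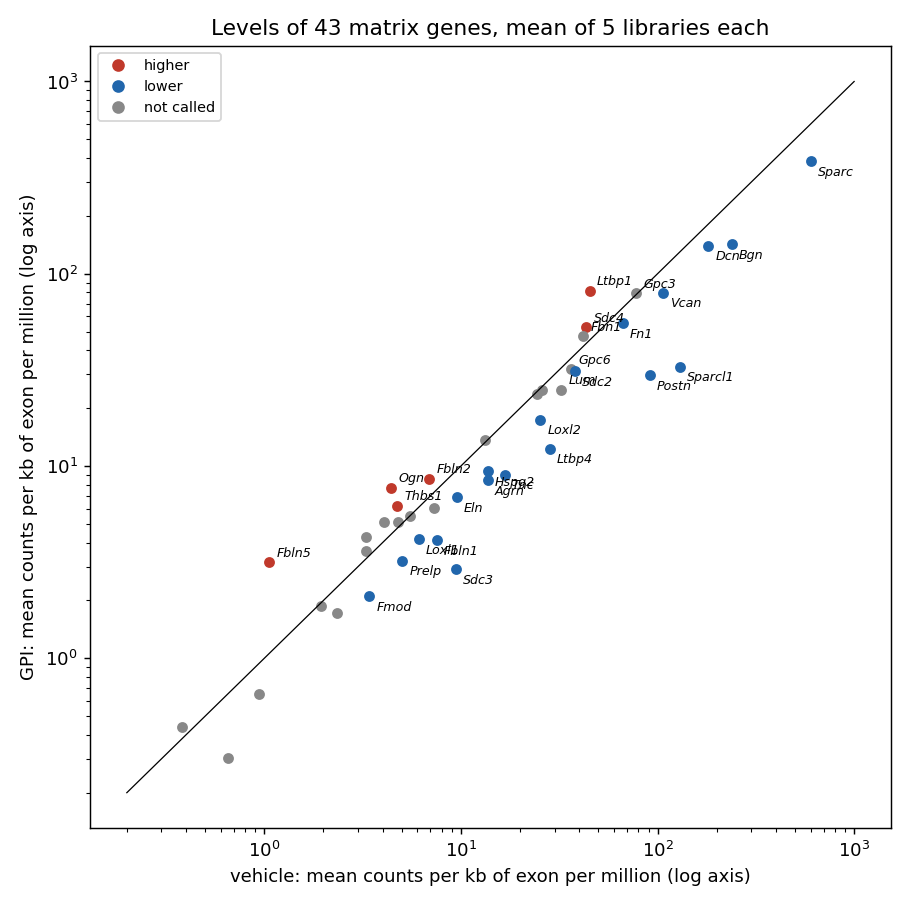
Mean CPM per kilobase of exon with vehicle (x) and GPI (y) for the 43 genes, both on log axes, with the line of equal levels. Sparc (601 and 384), Bgn (239 and 142) and Dcn (181 and 140) have the highest levels in both groups and lie below the line.

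In a stricter edgeR test (glmTreat), which asks for changes beyond 1.5-fold, 2 of the 43 genes were higher (Fbln5 and Ltbp1; 4.65%, against 1.84% of all genes in that test). In the same test 6 were lower (Sparcl1, Postn, Sdc3, Ltbp4, Tnc and Fbln1; 14%, against 4.46%). Of the 25 called genes, 16 were called in every fit that left out 1 mouse.

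Related genes outside the list also moved in both directions. In each set of them, up to 3 called genes a direction are named, those with the smallest p and not always the largest change. Of 19 tested other matricellular genes, 5 were higher (26.3%, against 11.1% of all tested genes) and 5 lower (26.3%, against 11.9%). Comp, the cartilage thrombospondin, had a log2 fold change of 3.51 from a mean of 6.16 to 70.3 normalized counts, and the SPARC relatives Smoc1 (1.43) and Smoc2 (1.12) were higher. Spon1 (-1.49), Tgfbi (-0.61) and Ccn4 (-0.48) were lower. Of 13 tested other proteoglycan genes, 1 (7.69%) was higher, Bcan (1.01), and 5 (38.5%) were lower. By p, the first of these were Esm1 (-2.86), Cspg4 (-1.44) and Cd44 (-1.65). Esm1 is a known product of endothelium and Cspg4 is also in the pericyte list.

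Among 16 tested accessory genes of elastic fibers, 1 was higher (6.25%, against 11.1% of all tested genes) and 8 lower (50%, against 11.9%). The higher one was Adamts17 (0.41). Mmrn2 (-2.94) and Mmrn1 (-2.13), both known from endothelium or platelets, and Emilin3 (-1.52) had the smallest p-values. Of 40 tested genes for glycosaminoglycan synthesis, 5 were higher, 4 lower and 31 not called, so 22.5% were called, near the 22.9% of all tested genes. By p, the first of those that rose were Chst11 (0.96), a chondroitin sulfotransferase, Extl2 (0.52) and Chsy1 (0.36), and the first of those that fell were Chst15 (-1.26), the heparan sulfate 6-O-endosulfatase Sulf1 (-0.58) and Extl3 (-0.42).

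Some LTBPs store ligands of the TGF-beta pathway. Of its 16 tested genes, 3 were higher (18.8%, against 11.1% of all tested genes) and 4 lower (25%, against 11.9%). The ligand Tgfb1 (-1.81), its anchor Lrrc32 (-1.31) and the receptor Tgfbr2 (-1.01) were lower. The ligands Tgfb2 (0.02) and Tgfb3 (-0.06) were not called. With vehicle, Tgfb2 had a higher level than Tgfb1, 32.8 against 14.5 CPM per kilobase. Itgb8, an integrin chain that activates latent TGF-beta (0.45), the receptor Tgfbr1 (0.35) and Smad2 (0.36) were higher. All genes given here with a log2 fold change were called at an FDR of 0.05, except Tgfb2 and Tgfb3.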

How the data were processed

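RNA of 10 libraries was measured, 5 vehicle and 5 GPI. Mapping to mm10 by the authors used STAR 2.5, and read pairs were counted in RefSeq genes with featureCounts of Subread 1.5.0-p1, per the labels and the study's methods, without strand. The raw counts the authors deposited were used as they are. The low-count filter was filterByExpr of edgeR, at a count of 10 and a total of 15, and left 13941 genes. Counts were scaled by TMM and tested by edgeR's quasi-likelihood test with mouse and treatment in the design, Benjamini-Hochberg adjustment and an FDR of 0.05. An SE is the size of the log2 fold change divided by the root of its F, intervals are at 95%, and directions in single mice use a prior count of 2. Exon lengths came from GENCODE M21 and promoters from RefSeq. The procedure was tested on simulated data.

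The replicate number is the mouse, per the labels, so gonads are paired by animal; correlations of deviations from the treatment mean were -0.0398 to 0.155 within a mouse. Their mean was 0.06, and -0.0147 for gonads of different mice. All 120 ways to pair the gonads gave an exact permutation p of 0.05, one-sided. No 2 libraries were copies of each other: chi-square for each pair, per degree of freedom, was 6.42 to 27.8. The libraries were amplified and carry no molecular identifiers, so errors rest on differences among mice and not on counting. The members and lists were chosen with earlier results of these data known. All members are named; per-library values are given for the largest changes in each direction, the highest level and any called member that went against its role group, and context and marker genes were named by smallest p, abundance or order, except 1 marker that is not reported here. The context genes Tgfb2 and Tgfb3 were named outside these rules, as ligands beside Tgfb1. Alternatives were DESeq2, limma-voom, no block, other scalings and filters, a fold change of 1.5, each mouse left out and M4 and M5 only. Hmcn2 and Muc16 were not analysed here. Software: edgeR 4.0.16, DESeq2 1.42.0 and limma 3.58.1 under R 4.3.3, and matplotlib 3.10.9 under Python 3.11.15.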

Additional observations from a re-analysis of the deposited data

Results flagged for a closer look

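For each gene, the 5 values in a treatment group (on the log2 scale) and the 5 log2 ratios were searched for a highest or lowest value whose gap to the nearest other value, divided by the whole range, passed Dixon's 95% limit. Of 129 such groups, 11 stood out; chance flags about 1 in 20 groups.

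Loxl2 had 2037 normalized counts in the GPI library of M1 against 916 to 960 in the others, and a log2 ratio of 0.07 in M1 against -0.98 to -0.69. Vehicle libraries of M1 were apart for Sdc3 (431, others 598 to 625) and Agrn (1692, others 1150 to 1263). Ratios of M1 were the lowest for Ogn (0.54, others 0.80 to 0.88) and Sdc2 (-0.43, others -0.28 to -0.23).

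M2 had the highest vehicle count of Fmod (199, others 105 to 118) and the lowest of Efemp2 (195, others 276 to 313), and M4 the lowest GPI count of Fmod (64.2, others 80.3 to 86.5). M5 had the highest log2 ratio of Gpc6 (0.12, others -0.32 to -0.21) and the lowest of Fbn1 (-0.09, others 0.23 to 0.28).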

How the results depend on the processing

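Of 25 called genes, 16 kept their call in each of the 12 planned settings that tested against no change, 9 lost it in at least 1, and 0 changed sign. The number called higher was 7 with no low-count filter, where Ltbp3 was added, 3 with total counts only and 2 against a fold change of 1.5, where 6 were lower; a stricter test gives fewer calls by construction. Leaving out 1 mouse gave 3 to 6 higher and 14 to 19 lower, with medians of -0.35 to -0.27. With M4 and M5 only, chosen after seeing the data, 3 were higher and 12 lower, with fewer samples. Without the replicate block, that is without pairing by mouse, 5 were higher and 17 lower with a median of -0.29, and Thbs1 (0.39), Dcn (-0.37) and Eln (-0.47) were not called; it changed no other call among the 43.

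Signs turned only for genes that were not called. Sdc1 was 0.00 without the block, with limma-voom and with no low-count filter, -0.01 with DESeq2, with its size factors and with at least 10 counts in every library, -0.05 with total counts only and -0.17 with M4 and M5 only. With total counts only, Gpc3 was -0.02 and Lox -0.03. Without M1, the signs of Sdc1, Thbs2, Lum, Gpc3, Ltbp2 and Lox turned. With M4 and M5 only, Lum was 0.04, Ltbp2 -0.03, Lox -0.10 and Loxl3 -0.05. Over the 5 fits that left out 1 mouse, the ranges were -0.06 to 0.07 for Sdc1, -0.27 to 0.02 for Thbs2, -0.43 to 0.04 for Lum, -0.03 to 0.06 for Gpc3, -0.13 to 0.06 for Gpc4, -0.04 to 0.30 for Ltbp2 and -0.06 to 0.10 for Lox. The cause was not tested. Thbs4 had too few counts for the filter of 10 counts in every library, and low counts limit what can be seen for Thbs4, Ltbp2 and Loxl4.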
